A study of Homo sapiens with 11 samples.

Results

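The genes of the TGF-beta superfamily were followed in RT4 cells, a line derived from a human bladder papilloma, grown on Matrigel or on plastic. They were taken by name from the probe annotation: symbols starting with TGFB, BMP and a digit, BMPR, SMAD and a digit, ACVR, INHB, or GDF and a digit, together with INHA, NOG, CHRD, FST, AMH, LEFTY1, LEFTY2, NODAL, LTBP1 and LTBP2. This gave 55 genes on 66 probes, of 14941 genes with a single symbol and 22464 probes on the array. No probe for BMPR1A or TGFBR2 was analysed here. The 9 Matrigel arrays came from cells layered on a solidified Matrigel disc in a culture insert and harvested at 12 h and on days 1, 2, 3, 4, 6, 7, 8 and 9, with 1 array each, and the labels put these cells on plastic before the gel. The 2 plastic arrays are replicates of the same line without the gel, and the label of plastic replicate 2 alone adds that Matrigel came next. Matrigel stands in the study for an extracellular matrix remodeled by cancer. All cells were RT4, the time of culture on plastic is not given in the sources used here, and nothing states that the replicates were separate cultures. P-values therefore measure the spread between these arrays only, and differences in handling between substrates cannot be told apart from the substrate.

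Ligands of this superfamily are secreted dimers that bring type II and type I serine/threonine kinase receptors together. The type I receptor then phosphorylates receptor-regulated SMADs, SMAD2 and SMAD3 after TGF-beta, activin or NODAL and SMAD1, SMAD5 and SMAD9 after BMPs, and these enter the nucleus with SMAD4. Antagonists outside the cell and the inhibitory SMADs SMAD6 and SMAD7 limit the signal, and in epithelia the TGF-beta arm is best known for arresting growth and for driving mesenchymal change.

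Values are multiples of the SD of the background noise of each array, counted from its zero point. A gene was above noise at 3 SD, and lower values were set to 3 before testing, so a fold is written "at least" where an array of the lower group, and none of the higher group, lay at that floor. Where both groups had arrays at the floor, as for BMP4 and LTBP1, the change is no limit. Each gene is represented by its probe with the highest mean, and levels are compared between groups for a probe and never between probes. The array number limits the precision. Of the 55 members, 47 averaged at least 5 SD on Matrigel or on plastic, against 92.0% of all genes. The other 8 were BMP5, BMP6, GDF2, GDF3, INHA, LTBP1, CHRD and BMPR1B, of which BMP5, above 3 SD on 1 array, was the one member not tested.

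Between Matrigel and plastic, 10 of the 54 tested members were higher on Matrigel, 10 were lower and 34 did not pass the test (limma, adjusted p under 0.05). Of all tested genes 24.2% were higher and 20.1% lower, so the shares of members that passed were not above those of the array. The median log2 change was 0.19 over the members and 0.087 over all genes. BMP1, GDF15, ACVR1, INHBB, BMP2, INHBA, SMAD4, GDF5, ACVR1B and TGFB3 were higher on Matrigel. TGFB1, INHBC, NODAL, LTBP1, LEFTY1, GDF3, SMAD6, TGFBR3, BMP7 and ACVRL1 were lower. Among these, ACVRL1 was called higher by its other probe, and GDF3 and LTBP1 were at or near the floor on Matrigel.

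**Figure D1:**
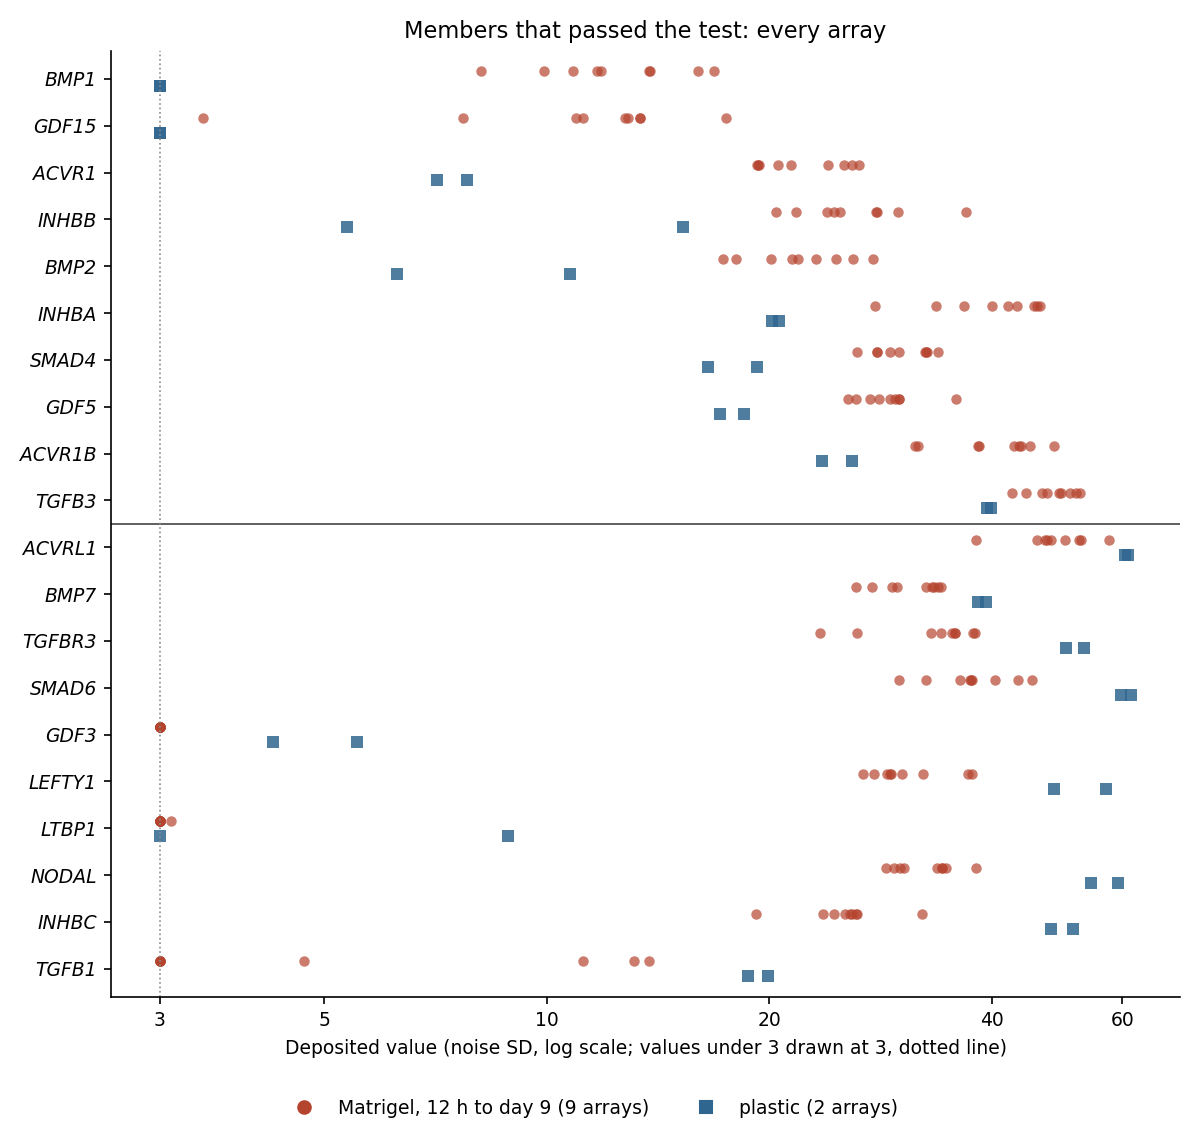
Deposited values (noise SD, log axis, values under 3 drawn at 3) of the 20 members that passed the test, with 9 Matrigel arrays as circles above 2 plastic arrays as squares for each gene. The groups do not overlap in 19 of them, and LTBP1 is the exception. The 20 were chosen by the test, which favors groups that are apart. Of all 54 tested members 14 lay above plastic and 12 below without overlap, and of 14513 tested genes 3233 and 3206.

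The deposited scale matters for every value that follows. In the raw intensities the array medians were 224 to 482 on Matrigel, against 162 and 140.5 on plastic. Groups apart in raw intensity, with Matrigel higher, are thus no separate test of a gene. Probes above 3 SD made up 76.1 to 85.5% of the raw values on Matrigel and 53.2 and 44.9% on plastic. After the authors' regression, these shares were 83.9 to 86.6% on Matrigel and 86.4 and 85.2% on plastic. Regressed on the raw values, both as log10, the deposited values had slopes of 0.910 to 1.28 on Matrigel and 0.649 and 0.633 on plastic, so low plastic signals stand higher in the deposited table than in the raw one. Of 15 urothelial and epithelial markers, 11 were above 3 SD on all arrays, KRT7, KRT18, KRT19, EPCAM, UPK2 and GATA3 among them. So were 11486 of all 14941 genes, and this count therefore does not test RT4 identity. Of the 14 tested markers 3 were lower on Matrigel and 0 higher. KRT13 and KRT20 were at or near the floor there, with means of 3.00 and 3.11 SD against 5.57 and 6.06 SD on plastic (adjusted p = 9.3e-05 and 2.5e-05, limma). Both p-values rest on a Matrigel group with little or no spread. CDH1 was lower well above the floor, with means of 16.8 SD on Matrigel and 36.2 SD on plastic (log2 -1.11, adjusted p = 0.033, limma). UPK1B was above 3 SD on 1 array. Above 3 SD on all arrays were also 4 of 4 blood, 3 of 5 endothelial and 7 of 10 fibroblast markers, and none of these markers was under 3 SD on all arrays. The summed fibroblast markers were 223.9 to 255 SD on Matrigel and 262.4 and 272.4 SD on plastic, the endothelial ones 93.6 to 117.1 SD and 88.9 and 90.1 SD, and the blood ones 88.7 to 112.1 SD and 85.7 and 88.6 SD. Single markers moved within these sums. CD3E averaged 32.5 SD on Matrigel and 5.20 SD on plastic (adjusted p = 1.4e-08, limma), VWF (log2 1.75), CDH5 (1.05), PDGFRB (1.85) and COL1A1 (0.60) were also higher, and THY1 (-1.65), COL1A2 (-1.24), COL3A1 (-0.56), KDR (-0.53) and CD68 (-0.48) were lower. Whether other cells or unspecific signal contributed to the members' values was not tested, and fewer cells of a type and less RNA per cell cannot be told apart.

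The promoters of 4 members that changed are shown for the short motifs that SMADs are known to bind. They run from 250 bases before to 50 after the start of transcription in RefSeq (GRCh38.p14), and 45 of the 55 members had an entry. GDF15 and INHBB were the 2 members with the largest rise, and TGFB1 the member with the largest fall, among those with 1 listed start that may be shown. SMAD6 was added after its letters were seen. They lie at chr19:18385908-18386207 (GDF15, plus strand), chr2:120345886-120346185 (INHBB, plus strand), chr19:41353873-41354172 (TGFB1, minus strand) and chr15:66701986-66702285 (SMAD6, plus strand). Capitals mark CAGAC or its reverse complement GTCTG, the palindrome GTCTAGAC, and the GC-rich palindrome GGCGCC, searched on both strands.
GDF15: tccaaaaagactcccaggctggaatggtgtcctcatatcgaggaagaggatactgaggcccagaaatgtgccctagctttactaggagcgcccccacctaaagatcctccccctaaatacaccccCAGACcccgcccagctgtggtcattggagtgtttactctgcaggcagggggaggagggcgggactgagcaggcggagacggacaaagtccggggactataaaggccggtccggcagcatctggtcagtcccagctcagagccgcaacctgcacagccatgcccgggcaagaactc
INHBB: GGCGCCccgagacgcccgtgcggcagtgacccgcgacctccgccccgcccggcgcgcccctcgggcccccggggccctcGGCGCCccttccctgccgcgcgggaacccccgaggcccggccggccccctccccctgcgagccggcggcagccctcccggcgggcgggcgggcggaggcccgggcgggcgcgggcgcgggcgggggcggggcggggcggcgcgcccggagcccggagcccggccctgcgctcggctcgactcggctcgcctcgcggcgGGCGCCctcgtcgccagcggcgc
TGFB1: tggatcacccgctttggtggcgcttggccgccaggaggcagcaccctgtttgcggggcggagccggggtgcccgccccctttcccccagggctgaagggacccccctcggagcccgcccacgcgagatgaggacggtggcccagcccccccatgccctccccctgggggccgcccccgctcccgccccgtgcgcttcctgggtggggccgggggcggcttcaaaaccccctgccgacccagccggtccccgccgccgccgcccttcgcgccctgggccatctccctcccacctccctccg
SMAD6: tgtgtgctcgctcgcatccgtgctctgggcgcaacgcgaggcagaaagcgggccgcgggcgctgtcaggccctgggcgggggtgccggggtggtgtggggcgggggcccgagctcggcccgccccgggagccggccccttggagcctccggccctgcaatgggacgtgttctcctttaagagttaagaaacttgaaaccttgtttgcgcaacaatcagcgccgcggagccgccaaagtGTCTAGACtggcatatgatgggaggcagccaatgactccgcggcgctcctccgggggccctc
A single CAGAC stood in the GDF15 promoter, 3 GGCGCC in that of INHBB, none of the 3 motifs in that of TGFB1, and 1 GTCTAGAC in that of SMAD6. CAGAC or GTCTG was held by 37 of 78 promoters of members (47.4%) and by 45.3% of all 35116 promoters of the same length. GGCGCC was held by 20 of them (25.6%), against 19.2% of all. GTCTAGAC was held by 1 member promoter, that of SMAD6, and by 0.202% of all. These matches describe letters in a window, not bound sites.

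Among the TGF-beta ligands, TGFB1 was lower on Matrigel and TGFB3 slightly higher, while TGFB2 did not pass the test. TGFB1, the most widely expressed of the 3, had 3.00, 3.00 and 13.8 SD as its lowest, median and highest Matrigel values after the floor, against 18.7 and 19.9 SD on plastic. It was under 3 SD at 12 h and on days 1, 3, 6 and 7, at 4.70 SD on day 2, and at 11.2, 13.1 and 13.8 SD on days 4, 8 and 9. All 9 Matrigel arrays thus lay below both plastic arrays, but they ranged from under noise to intermediate levels without following the order of days. The difference was -1.92 on the log2 scale (SE 0.67, adjusted p = 0.037, limma), or at least 3.79-fold lower. It was the 1 member of the on-off class, which is a geometric mean under 1 SD on Matrigel and over 10 SD on plastic and which held 0.315% of all genes. The call was lost without plastic replicate 1 (adjusted p = 0.17, limma) or 2 (0.21), with array weights (0.12) or a floor of 1 SD (0.076), and at 0.052 to 0.053 without the array of day 1, 2, 3, 6 or 7.

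The raw intensities of TGFB1 did not separate the groups. They were 5.95, 114.5 and 271.3 units as the lowest, median and highest on Matrigel and 133.8 and 128.5 on plastic. In SDs of the raw noise this was up to 7.61 on Matrigel, with days 2, 4, 8 and 9 above both plastic arrays, and 2.66 and 2.22 on plastic, under the 3 SD limit. The deposited plastic values of 18.7 and 19.9 SD thus stood at 2.66 and 2.22 SD before the adjustment of the arrays, and without the regression the log2 change was 0.43. The lower call of TGFB1 held in 9 of 19 alternatives, the rebuild with the regression and quantile normalization among them.

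TGFB3 had 42.5, 49.3 and 52.6 SD as its lowest, median and highest Matrigel values, against 39.9 and 39.4 SD on plastic. The groups did not overlap, and the change of 0.28 on the log2 scale (SE 0.081, adjusted p = 0.014, limma) is a 1.22-fold rise. It was no longer called without plastic replicate 1 (adjusted p = 0.063, limma) or 2 (0.087). TGFB2, a ligand prominent in development, spanned both plastic values, with 19.4, 25.4 and 54.6 SD on Matrigel and 32.3 and 32.1 SD on plastic (log2 -0.29, SE 0.29, adjusted p = 0.45, limma). Its highest value was that of the 12 h array, and without that array it was lower on Matrigel (log2 -0.42, adjusted p = 0.032).

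Of the 15 tested BMP and GDF ligands, 3 were higher on Matrigel (GDF15, BMP2 and GDF5) and 2 lower (BMP7 and GDF3). GDF15, a divergent member induced by cellular stress, had 3.43, 12.8 and 17.5 SD as its lowest, median and highest Matrigel values and was under noise on both plastic arrays. It rose by at least 3.53-fold (log2 1.82, SE 0.47, adjusted p = 0.0085, limma). The raw intensities were 69.5 to 352.9 on Matrigel and below zero on plastic, -36.0 and -54.0. With either plastic array left out the change stayed at 1.82 on the log2 scale, with an adjusted p of 0.075 or 0.082. After quantile normalization it was 0.74 (adjusted p = 0.067, limma).

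BMP2, an osteogenic ligand of the BMP arm, had 17.3, 21.9 and 27.6 SD as its lowest, median and highest Matrigel values, against 10.8 and 6.28 SD on plastic. Every Matrigel array was above both plastic arrays (log2 1.42, SE 0.22, adjusted p = 0.0004, limma, 2.68-fold), with a log2 change of 0.78 after quantile normalization. Raw intensities were 212.1 to 517.4 on Matrigel and 62.7 and 25.2 on plastic, with the array medians apart in the same direction. GDF5, known for joint formation, had 25.6, 29.2 and 35.7 SD on Matrigel and 18.5 and 17.2 SD on plastic (log2 0.70, SE 0.12, adjusted p = 0.00053, limma). Its highest Matrigel value was that of day 2.

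BMP7, a ligand with a known part in kidney development, was lower on Matrigel by its brighter probe, with 26.2, 32.5 and 34.1 SD against 38.3 and 39.2 SD on plastic (log2 -0.32, SE 0.11, adjusted p = 0.029, limma). Its other probe was not called and had the opposite sign (log2 0.94, adjusted p = 0.14). BMP7 lost the call without plastic replicate 1 (adjusted p = 0.11) or 2 (0.16), rebuilt from raw intensities (0.46), after quantile normalization (0.18) and with array weights (0.093), and its raw intensities were 317.6 to 619.5 on Matrigel and 364.8 and 342.7 on plastic. GDF3, which is close to NODAL in its function in the embryo, was at the floor on all Matrigel arrays and at 4.27 and 5.54 SD on plastic, at least 1.62-fold lower (adjusted p = 1.8e-05, limma). That p rests on a Matrigel group with no spread. The raw GDF3 intensities were at or near noise in both groups, 23.7 to 67.4 on Matrigel and 19.5 and 21.3 on plastic, so they give no order for this gene.

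The remaining BMP and GDF ligands did not pass the test. BMP4, which patterns mesoderm, ranged over 3.00, 8.78 and 19.4 SD on Matrigel and had 12.1 and 2.59 SD on plastic, so the 2 plastic arrays disagreed (log2 0.43, SE 0.73, adjusted p = 0.65, limma). Without plastic replicate 2 its sign turned (log2 -0.57). GDF11 was as variable, with 3.00 to 14.1 SD on Matrigel and 7.91 and 2.46 SD on plastic. BMP10, BMP15, BMP3, BMP6, BMP8B, GDF10, GDF2 and GDF9 had log2 changes between -0.20 (GDF9) and 0.57 (GDF2, BMP10), none past the test.

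Among 7 activin, inhibin, nodal and AMH ligands, the subunits of the classical activins rose and INHBC and NODAL fell. INHBA, whose homodimer is activin A, had 27.8, 42.0 and 46.4 SD as its lowest, median and highest Matrigel values, against 20.2 and 20.6 SD on plastic. Every Matrigel array exceeded both plastic arrays (log2 0.96, SE 0.17, adjusted p = 0.00092, limma, 1.95-fold). The raw intensities were 418.4 to 784.1 on Matrigel and 148.4 and 135.1 on plastic, with the array medians apart in the same direction. INHBB, whose homodimer is activin B, had 20.4, 24.9 and 36.9 SD on Matrigel and 15.3 and 5.37 SD on plastic (log2 1.52, SE 0.31, adjusted p = 0.0023, limma, 2.87-fold). Its plastic arrays were far apart, and without plastic replicate 2 the change was 0.77 with an adjusted p of 0.060. Its promoter, printed above, is GC-rich (88.7% G and C).

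INHBC, the activin C subunit known chiefly from liver, had 19.2, 25.7 and 32.1 SD as its lowest, median and highest Matrigel values, against 48.0 and 51.5 SD on plastic (log2 -0.98, SE 0.14, adjusted p = 0.00021, limma). NODAL, the ligand of embryonic axis formation, had 28.7, 33.7 and 38.1 SD on Matrigel and 59.2 and 54.4 SD on plastic (log2 -0.81, SE 0.10, adjusted p = 8.9e-05, limma). Neither gene had a Matrigel array near the plastic ones on this scale. The raw intensities were 276.9 to 522.1 on Matrigel and 502.8 and 509.0 on plastic for INHBC, and 351.0 to 582.2 and 676.5 and 551.3 for NODAL, so both overlapped there. Without the regression their log2 changes were 0.082 and 0.12. That scale was the exception, and each call held in 19 of 20 alternatives. INHA (log2 -0.62), INHBE (-0.095) and AMH (0.18) did not pass the test.

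The latent complex and antagonist genes gave few calls. LTBP1, which tethers latent TGF-beta to the matrix, was called lower (log2 -0.78, SE 0.26, adjusted p = 0.031, limma), but its highest Matrigel value was 3.11 SD, and of the plastic arrays replicate 1 was under noise and replicate 2 at 8.87 SD. Without plastic replicate 2 the change was 0.0056, and the call was also lost on rebuilt values (adjusted p = 0.057) and with a floor of 1 SD (0.20). LTBP2 had 31.5 to 35.7 SD on Matrigel and 31.4 and 28.9 SD on plastic by its brighter probe (log2 0.14, SE 0.076, adjusted p = 0.16, limma). The other LTBP2 probe was higher on Matrigel (log2 1.68, SE 0.57, adjusted p = 0.031), with groups that overlapped at the floor.

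Of 5 antagonists, LEFTY1, which blocks NODAL signaling, was lower, with 26.8, 29.2 and 37.6 SD on Matrigel and 48.4 and 57.0 SD on plastic (log2 -0.77, SE 0.13, adjusted p = 0.00069, limma). Its near-identical paralog LEFTY2 had 21.3 to 35.4 SD on Matrigel and 30.5 and 29.0 SD on plastic and did not pass (log2 -0.039). Probe sequences were not used here, so how far either probe binds the other transcript was not tested. FST, the activin antagonist follistatin, had 15.4, 20.4 and 24.95 SD on Matrigel and 15.0 and 15.3 SD on plastic (log2 0.42, SE 0.16, adjusted p = 0.055, limma), just short of the limit. NOG, the BMP antagonist noggin, had 14.0 to 32.6 SD on Matrigel and 23.0 and 22.1 SD on plastic (log2 0.086), and CHRD averaged 4.32 SD on Matrigel and was under noise on plastic (log2 0.53, adjusted p = 0.40). Raw LEFTY1 intensities overlapped, 342.7 to 566.8 on Matrigel and 509.0 and 590.0 on plastic. The LEFTY1 call held in 19 of 20 alternatives, and the scale without the regression was the exception (log2 0.22).

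**Figure D2:**
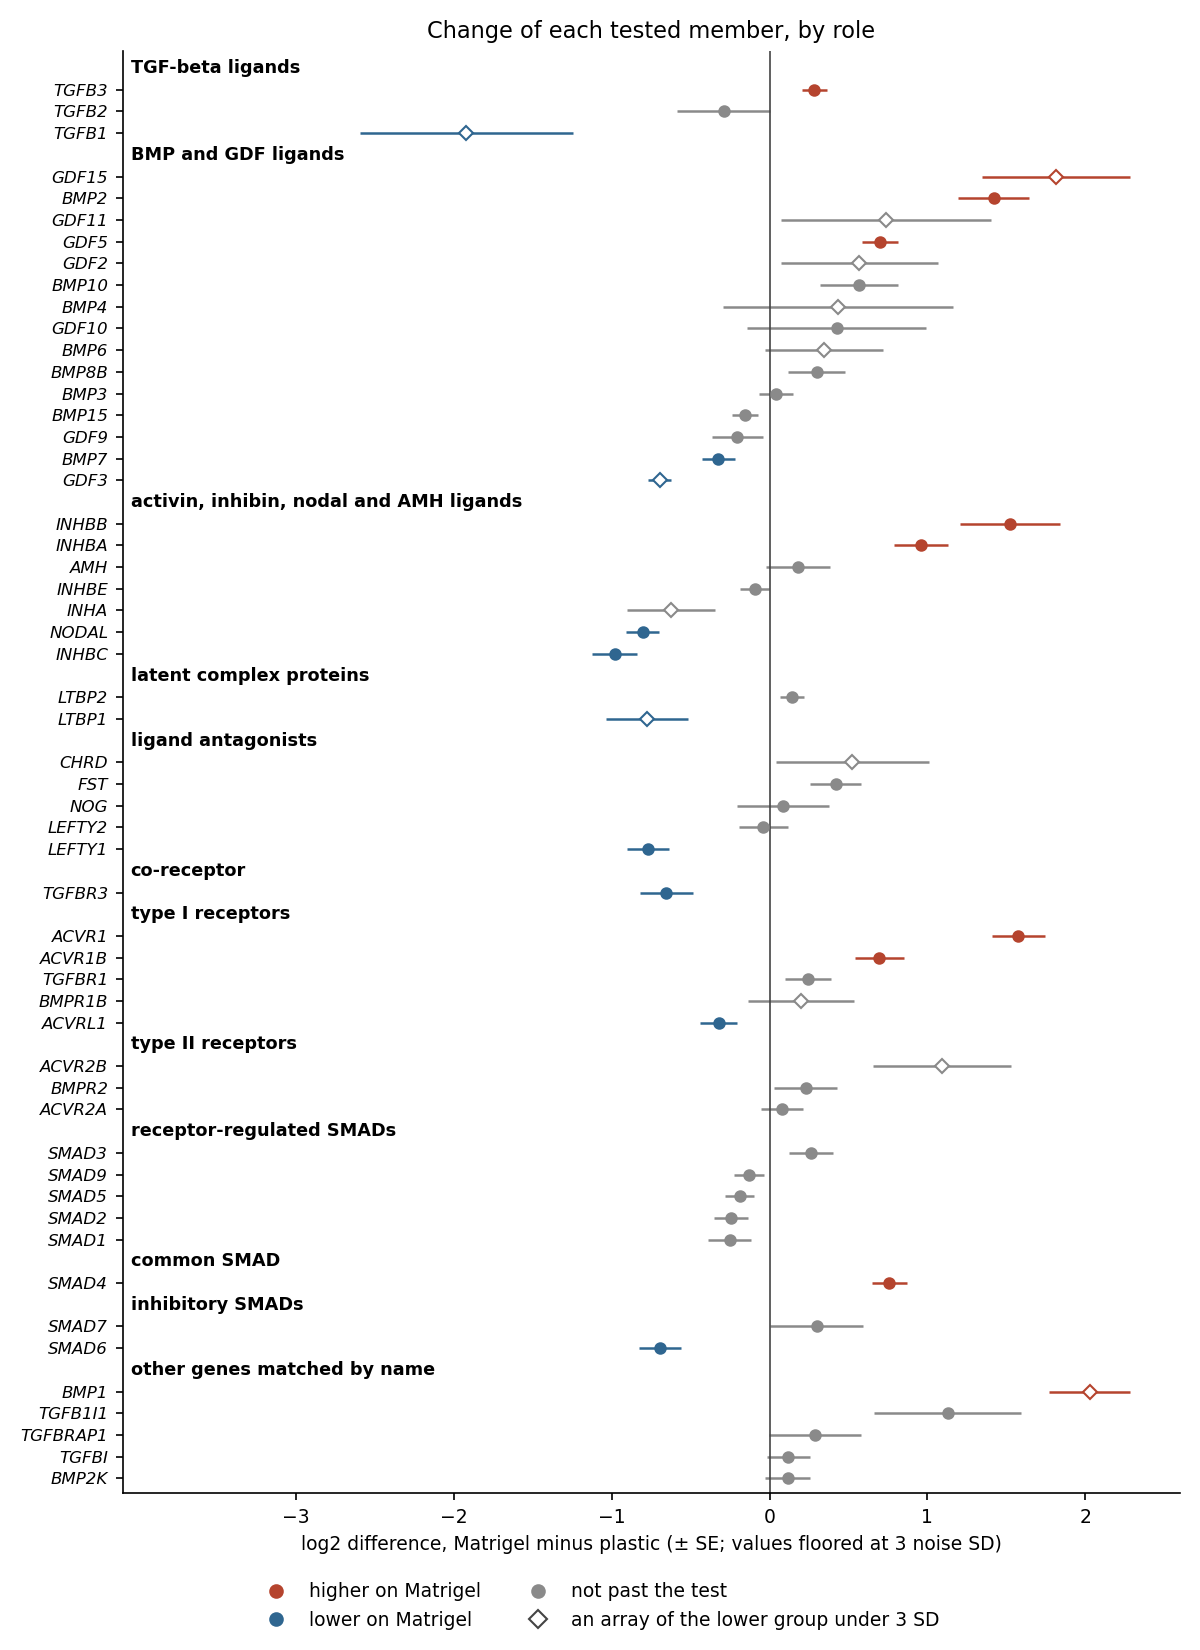
Log2 difference between Matrigel and plastic (points, with SE bars) for the 54 tested members grouped by role, and open diamonds where an array of the lower group was under 3 SD. Both activin beta A and B subunits, ACVR1, ACVR1B and SMAD4 lie to the right of 0, and no receptor-regulated SMAD or type II receptor passed the test.

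Of 5 type I receptors 2 were higher on Matrigel and 1, ACVRL1, was lower by its brighter probe only. ACVR1, the type I receptor ALK2 that serves BMP ligands, had 19.3, 21.4 and 26.5 SD as its lowest, median and highest Matrigel values, against 7.79 and 7.11 SD on plastic. The groups stood far apart (log2 1.58, SE 0.17, adjusted p = 1.9e-05, limma, 2.98-fold), and the call held under all alternatives run, with 0.79 on the log2 scale after quantile normalization. Raw intensities were 211.7 to 476.4 on Matrigel and 41.0 and 29.9 on plastic. ACVR1B, the activin receptor ALK4, had 31.5, 42.8 and 48.4 SD on Matrigel and 23.6 and 25.9 SD on plastic by its brighter probe (log2 0.70, SE 0.15, adjusted p = 0.0036, limma). Its other probe was not called (log2 0.20, adjusted p = 0.65), and the call was lost without plastic replicate 1 (adjusted p = 0.057).

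ACVRL1, the receptor ALK1 best known from endothelium, gave opposite calls by its 2 probes. The brighter was lower on Matrigel, 38.1 to 57.5 SD against 61.1 and 60.5 SD on plastic (log2 -0.32, SE 0.12, adjusted p = 0.043, limma). The other was higher (log2 0.64, SE 0.21, adjusted p = 0.027), so no direction can be given for this gene. The first of these calls was lost without either plastic array (adjusted p = 0.19 and 0.18) and without the 12 h, day 1, 2, 3 or 6 array (0.053 to 0.062). TGFBR1, the TGF-beta type I receptor, had 29.4, 36.4 and 45.9 SD on Matrigel and 29.5 and 31.1 SD on plastic (log2 0.24, SE 0.14, adjusted p = 0.19, limma). BMPR1B was under 3 SD on 7 of the 9 Matrigel arrays and on both plastic arrays.

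None of the 3 type II receptors passed. ACVR2B, which binds activins and several GDFs, came nearest, with 3.05, 7.72 and 9.69 SD as its lowest, median and highest Matrigel values and both plastic arrays under noise (log2 1.09, SE 0.44, adjusted p = 0.062, limma). ACVR2A had 26.6 to 39.6 SD on Matrigel and 32.4 and 32.8 SD on plastic (log2 0.079, SE 0.14). BMPR2, the type II receptor for BMPs, had 20.6 to 39.4 SD on Matrigel and 30.2 and 23.8 SD on plastic (log2 0.23, SE 0.20). The co-receptor TGFBR3, betaglycan, which presents TGF-beta to its receptors, was lower, with 23.4, 35.3 and 37.9 SD against 50.3 and 53.2 SD on plastic (log2 -0.66, SE 0.17, adjusted p = 0.0082, limma). That call was lost without plastic replicate 1 (adjusted p = 0.057) or 2 (0.095) and on values rebuilt from raw intensities (log2 -0.25, adjusted p = 0.11), and raw intensities overlapped, 350.1 to 680.6 on Matrigel and 536.9 and 533.7 on plastic.

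Inside the cell the common SMAD rose and none of the 5 receptor-regulated SMADs passed. SMAD4, the partner shared by both arms, had 26.2, 29.9 and 33.8 SD as its lowest, median and highest Matrigel values, against 19.3 and 16.5 SD on plastic (log2 0.76, SE 0.11, adjusted p = 0.00024, limma, 1.69-fold). Its raw intensities were 282.5 to 628.5 on Matrigel and 139.2 and 98.2 on plastic, with the array medians apart in the same direction. SMAD2 (log2 -0.24, SE 0.11), SMAD3 (0.26, SE 0.14), SMAD1 (-0.25, SE 0.14), SMAD5 (-0.19, SE 0.090) and SMAD9 (-0.13, SE 0.095) had adjusted p between 0.086 and 0.30 (limma). Of 3 SMAD3 probes 1 was lower on Matrigel (log2 -0.63, SE 0.21, adjusted p = 0.028), the other 2 were not called, and the SMAD1 and SMAD5 probes gave no call. SMAD1, SMAD2, SMAD5 and SMAD9 turned positive without the regression.

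SMAD6, the inhibitory SMAD of the BMP arm, had 29.9, 37.5 and 45.3 SD as its lowest, median and highest Matrigel values, against 59.8 and 61.7 SD on plastic (log2 -0.69, SE 0.13, adjusted p = 0.0013, limma). Its raw intensities were 412.1 to 676.4 on Matrigel and 686.7 and 660.9 on plastic, so 1 plastic array lay within the Matrigel range, and the call was lost on values rebuilt from them (log2 -0.23, adjusted p = 0.054, limma). SMAD7, the inhibitory SMAD of both arms, had 14.3, 34.2 and 35.8 SD on Matrigel and 25.1 and 23.3 SD on plastic (log2 0.30, SE 0.29, adjusted p = 0.43, limma), and the 12 h array was the one below both plastic arrays.

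Of the 5 other genes that the naming rule brought in, BMP1 alone passed. BMP1 is no ligand but a protease that cleaves procollagen and the antagonist chordin. It had 8.14, 11.9 and 16.8 SD as its lowest, median and highest Matrigel values, and both plastic arrays were under noise (log2 2.03, SE 0.26, adjusted p = 7.3e-05, limma), at least 4.08-fold higher. Raw intensities were 117.4 to 351.1 on Matrigel and -11.8 and -2.4 on plastic. With GDF15 it formed the off-on class among members, a geometric mean over 10 SD on Matrigel and under 1 SD on plastic, which held 3.92% of all genes. TGFBI, a matrix protein induced by TGF-beta, had 28.2 to 43.7 SD on Matrigel and 33.7 and 34.9 SD on plastic (log2 0.12, SE 0.14, adjusted p = 0.50). TGFB1I1 (log2 1.13, adjusted p = 0.068), TGFBRAP1 (0.29) and BMP2K (0.11) did not pass.

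By the study's kind of criterion, a relative SD past a threshold whichever array was left out, 7 members were hypervariable, namely ACVR2B, BMP1, BMP4, GDF11, GDF15, TGFB1 and TGFB1I1, against 19.5% of all genes. Their relative SDs were 48.3% (TGFB1I1) to 99.2% (TGFB1), with a threshold of 29.2%. ACVR1, BMP10, BMP2, GDF10, INHBB, INHBC and TGFB2 passed that threshold over all arrays, at 32.6% (BMP2) to 34.8% (INHBB), but not with each array left out. All 7 hypervariable members had at least 1 array under 7 SD.

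On Matrigel the 12 h array was compared with the 8 later arrays. It was the array with the lowest raw median on Matrigel, 224 against 249.6 to 482 on days 1 to 9, and it is 1 array, assumed to vary like the others. Of the members 3 were higher at 12 h (3.42% of all genes were) and 2 lower (2.58%). TGFB2 stood at 54.6 SD at 12 h and at 19.4 to 29.5 SD on days 1 to 9 (log2 1.18, SE 0.20, adjusted p = 0.012, limma). SMAD7 stood at 14.3 SD at 12 h and at 24.2 to 35.8 SD later (log2 -1.19, SE 0.19, adjusted p = 0.0097), and GDF15 at 3.43 SD at 12 h and at 7.70 to 17.5 SD later (log2 -1.83, SE 0.35, adjusted p = 0.020). Thus at 12 h GDF15 stood just above the floor, where both plastic arrays were, and SMAD7 and TGFB2 were outside both their plastic and their later values. The other calls were INHA at 4.78 SD and LTBP1 at 3.11 SD, for which all 8 later arrays were at the floor and gave no spread.

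Over days on Matrigel no member had a trend in log2 of the day (limma, adjusted p under 0.05), and 0.00689% of all genes, 1 gene, had one. At an unadjusted p under 0.05, 7 members passed, beside 1819 of 21480 probes, and with the day on a linear scale 0 were called and 3 members passed unadjusted, beside 853 probes.

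**Figure D3:**
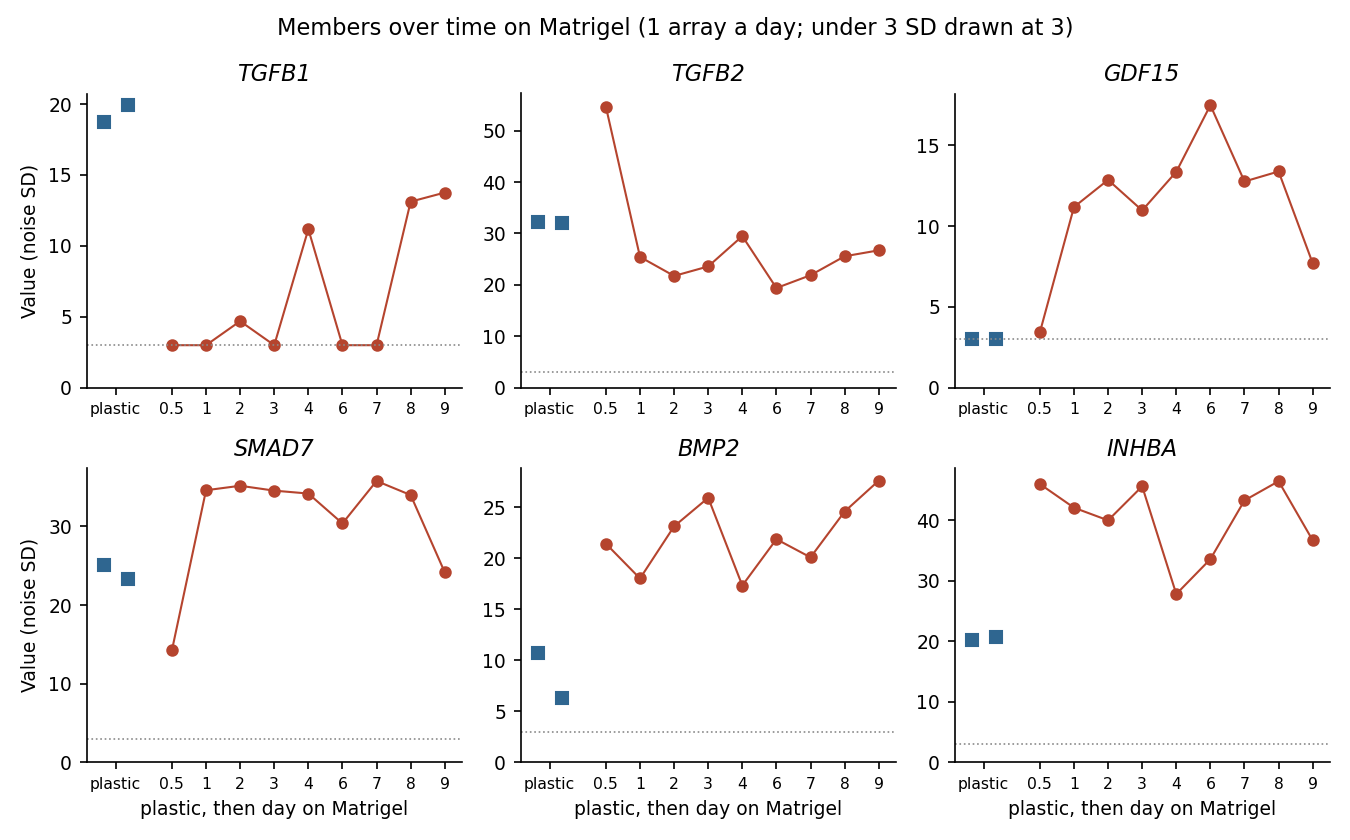
Values (noise SD, linear axis from 0, values under 3 drawn at 3) of 6 members on plastic (squares, 2 arrays) and then by day on Matrigel (circles joined by a line, 1 array each). TGFB2 is highest and SMAD7 and GDF15 are lowest on Matrigel at 12 h, BMP2 and INHBA are above plastic from 12 h on, and TGFB1 alternates between the floor and 13.8 SD.

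Genes of the pathway outside the naming rule were counted by list. Of all tested genes 24.2% were higher on Matrigel and 20.1% lower, with a median log2 change of 0.087, which serves as background for each list. Of 41 extracellular regulators 35 were on the array and 32 were tested, with 10 higher on Matrigel and 4 lower and a median log2 change of 0.41. FBN1, the fibrillin that anchors latent TGF-beta complexes, averaged 20.3 SD on Matrigel and was under noise on plastic (log2 2.76, SE 0.22, adjusted p = 1.3e-06, limma). CER1, a secreted BMP and NODAL antagonist, averaged 13.8 SD on Matrigel and was under 3 SD on plastic (log2 2.20, SE 0.22), and TWSG1, a BMP-binding modulator, averaged 6.95 SD on Matrigel and was under 3 SD on plastic (log2 1.21, SE 0.41). The gelatinase MMP9 (log2 -1.29), LTBP4 (-0.87) and CHRDL1 (-0.69) were lower, with Matrigel means of 3.00, 3.00 and 3.06 SD and plastic means of 7.32, 5.496 and 4.93 SD.

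Of 40 genes for intracellular signaling and SMAD cofactors, 37 were tested, with 9 higher and 6 lower and a median of 0.069. The shares over all tested genes were 24.2% higher and 20.1% lower. CREBBP, the coactivator that SMADs recruit, averaged 31.6 SD on Matrigel and 5.33 SD on plastic (log2 2.57, SE 0.59, adjusted p = 0.0043, limma). SKIL, a SMAD corepressor, averaged 13.3 SD on Matrigel and was under noise on plastic (log2 2.14, SE 0.31), and PML averaged 17.6 SD on Matrigel and 4.45 SD on plastic (log2 1.99, SE 0.28). Lower were the ubiquitin ligases SMURF1, with 23.6 SD on Matrigel and 42.7 SD on plastic (log2 -0.86, SE 0.17, adjusted p = 0.002), and SMURF2, at the floor on all Matrigel arrays and at 6.37 SD on plastic (log2 -1.09, SE 0.14). CITED2, a CREBBP-binding regulator, was also lower (log2 -0.82, SE 0.21). It averaged 3.19 SD on Matrigel, near the floor, and 5.64 SD on plastic, and the groups overlapped.

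Of 50 known target genes 46 were on the array and 42 were tested, with 8 higher and 6 lower and a median of 0.17. Again, the shares over all tested genes were 24.2% higher and 20.1% lower. IL11 averaged 19.9 SD on Matrigel and 3.68 SD on plastic (log2 2.44, SE 0.36, adjusted p = 0.00025, limma). CDKN2B, the CDK inhibitor p15 of TGF-beta growth arrest, averaged 13.3 SD on Matrigel and was under noise on plastic (log2 2.15, SE 0.32), while MYC, which TGF-beta represses in epithelia, averaged 29.0 SD on Matrigel and 11.8 SD on plastic (log2 1.29, SE 0.26). The mesenchymal regulator ZEB1 (log2 -1.40, SE 0.13), the collagen gene COL1A2 (-1.24, SE 0.050) and the epithelial cadherin CDH1 (-1.11, SE 0.38, adjusted p = 0.033) were lower, ZEB1 and COL1A2 at or near the floor on Matrigel. ID1 and ID3, classic BMP targets named here after their values were seen, did not pass (log2 -0.56, SE 0.27, and -0.87, SE 0.91).

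**Figure D4:**
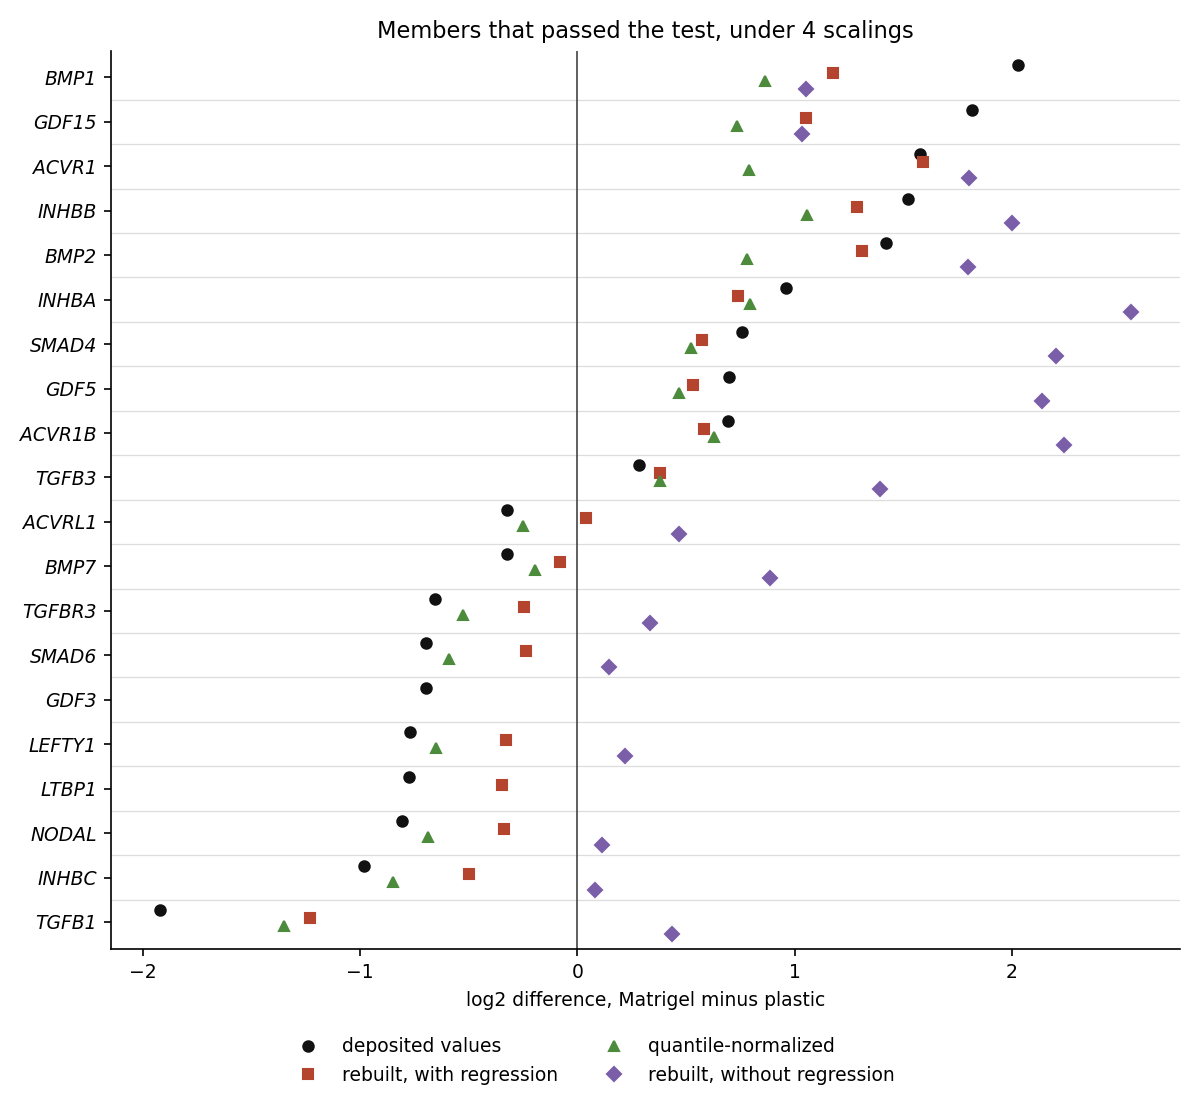
Log2 difference between Matrigel and plastic of the 20 members that passed the test, on the deposited values, on values rebuilt from the raw intensities with and without the regression, and after quantile normalization. A missing symbol means that the gene was not tested on that scale. The 10 members higher on the deposited values are right of 0 on every scale, and 8 of the 10 lower ones are right of 0 without the regression.

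Both directions were then compared across scales. BMP1, ACVR1, BMP2, INHBA, SMAD4 and GDF5 kept their call under every alternative in which they were tested, 19 for BMP1 and 20 for each of the others. One of these, the scale without the regression, favors higher calls, with 15635 of 19533 probes higher and 50 lower. Of the 10 lower members, none was lower without the regression, 8 had positive values there, and GDF3 and LTBP1 were not tested on that scale. The median of all probes was 1.28 on that scale. These 8 lower members all lay below it, while 8 of the higher members lay above it. TGFB1, BMP1 and GDF15 lay below that median with both plastic arrays at the floor, so they cannot be placed against it. ACVR1, INHBB, BMP2, SMAD4 and GDF5 also had both plastic arrays at the floor there, and INHBA had plastic replicate 2. Their changes on that scale are lower limits. The floor itself moved the largest changes: with floors of 1 and 5 SD, BMP1 was 3.61 and 1.29 and GDF15 3.40 and 1.14 on the log2 scale, GDF3 was -2.28 and, no longer called, -0.074 (adjusted p = 0.073, limma), and TGFB1 was -2.59 with a floor of 1 SD. BMP1 was 0.86 after quantile normalization.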

How the data were processed

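RNA of RT4 cells on Matrigel (9 arrays) or plastic (2 arrays) was labeled with Cy3 and hybridized to spotted long-oligonucleotide arrays. The authors deposited raw intensity values per array and a table of log10 values, which they made by dividing each intensity above the zero point by the SD of the noise, taking log10 and adjusting the arrays by robust linear regression. The regression brings the arrays to a common scale and so removes differences in total signal.

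The deposited values were floored at 3 SD and tested as log2 values with limma 3.58.1 in R 4.3.3 (lmFit, eBayes with a trend), with Benjamini-Hochberg adjustment over the 21480 probes above 3 SD on at least 2 arrays. The fit was tested on simulated data. A gene with a whole group at the floor has no spread in it, so its standard error is small. The alternatives rebuilt the values from raw intensity with or without the regression, or used quantile normalization, floors, filters, array weights, no variance trend and leaving out each array. Of the probes, 17043 had a single gene symbol, 172 had several and 5249 had none. Of these, 16952 were matched by gene identifier to RefSeq names, and promoters came from RefSeq (GRCh38.p14).

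Members and lists were chosen with earlier results of these data known. Named were members past the test with groups apart, up to 12 in each direction, off-on and on-off members, a core set of ligands, receptors and SMADs, and the 3 largest changes each way among the called genes of every pathway list. LTBP1, LTBP2, ACVR2B and other core genes are given whatever their values, and further members are given by their changes to account for each.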

Additional observations from a re-analysis of the deposited data

Results flagged for a closer look

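In 6 of 36 named members with a spread on Matrigel, 1 of the 9 arrays stood apart from the others by more of the range than Dixon's critical value. In 4 of these it was the 12 h array. That limit passes about 1 in 20 (1.8 of 36) where values are normal and members independent. Floored values and members sharing the 12 h array do not meet this, so the 6 are no test against that rate. TGFB2 was highest at 12 h, at 54.6 SD with the nearest array at 29.5 SD (ratio of gap to range 0.595). SMAD7 was lowest at 12 h, at 14.3 SD with the nearest at 24.2 SD (0.574), and so was GDF15, at 3.43 SD with the nearest at 7.70 SD (0.497). LTBP1 was highest at 12 h, at 3.11 SD with all others at the floor (1.0), a gap of no size. GDF5 was highest on day 2, at 35.7 SD with the nearest at 30.0 SD (0.528). BMPR1B was highest on day 9, at 8.60 SD with the nearest at 3.66 SD (0.812). The cause was not tested.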

How the results depend on the processing

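Without the regression, 8 of the lower changes turned positive. Of the called members tested, 1 turned on values rebuilt with the regression and 0 after quantile normalization. The median log2 change of all probes was 0.057 on the deposited values, 0.17 rebuilt with the regression and 1.28 rebuilt without it. Calls over all probes were 4901 higher and 4815 lower on the deposited values, 5678 and 1742 rebuilt, 15635 and 50 without the regression, and 3179 and 3811 after quantile normalization.

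Without the regression 38 members were higher and 0 lower, against 10 and 10. The count of lower members was 4 rebuilt, 6 after quantile normalization and 6 with a filter of 3 SD on all arrays, and 6 to 11 with 1 array left out. At 12 h the higher members were 0 without the regression and 1 each after quantile normalization or with floors of 1 or 5 SD, against 3. The lower ones were 10 without the regression and 1 each rebuilt, after quantile normalization and with a floor of 5 SD, against 2. Off-on members were 0 rebuilt, after quantile normalization and where every array had to pass the limits, and on-off members were 0 under these and without the regression.

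Among extracellular regulators 23 were higher and 0 lower without the regression, 5 higher after quantile normalization and 0 lower rebuilt. Among intracellular genes 29 were higher and 0 lower without the regression and 1 was lower rebuilt. Among targets 29 were higher and 0 lower without the regression and 2 were lower rebuilt.

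Without the regression the log2 changes turned to 0.43 for TGFB1, 0.082 for INHBC, 0.12 for NODAL, 0.22 for LEFTY1, 0.15 for SMAD6, 0.33 for TGFBR3, 0.89 for BMP7, 0.47 for ACVRL1, 1.12 for TGFB2, 0.94 for SMAD1, 1.09 for SMAD2, 1.04 for SMAD5 and 1.21 for SMAD9. Rebuilt with the regression, ACVRL1 was 0.042, SMAD5 0.014 and SMAD9 0.029, and after quantile normalization BMP4 was -0.070. With 1 array left out, BMP4 spanned -0.57 to 1.44 and LTBP1 -1.56 to 0.0056. With either plastic array left out, 7 called members lost the call each time, besides the turn of LTBP1. The cause of these changes was not tested beyond the construction of each scale. No paired analysis was possible because the plastic and Matrigel arrays share no replicate numbers that pair cultures.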
